A study of Mus musculus with 26 samples.

Results

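The 10 genes described here belong to brain endothelial cells, the cells that line brain vessels, and were followed across mouse entorhinal cortex and hippocampus. They were chosen by name: the transcription factors Klf2 and Klf4, the junction genes Cldn5, Cdh5 and Pecam1, the receptors Flt1 and Tek, and the transporters Slco1a4, Abcb1a and Slc2a1. The array carried 18 probe sets for these 10 genes among its 45101 probe sets, and the 10 genes were among 18194 that had a probe set of their own. All 10 genes and 17 of the 18 probe sets passed a filter on low values. The exception was a second Cdh5 probe set, with a mean log2 value of 3.86 against the limit of 4.33.

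The 26 arrays came from 8 groups, 4 in each region. In each region 4 arrays were of APP transgenic mice given BDNF, 4 of APP transgenic mice given GFP, 2 of non-transgenic mice given GFP and 3 of non-transgenic mice with a sham lesion. APP is the amyloid precursor protein, from which the amyloid of Alzheimer's disease is cut; BDNF is brain-derived neurotrophic factor, a growth factor for neurons; GFP is the fluorescent protein that served as its control. The genes were delivered by lentivirus into the entorhinal cortex of aged mice, and tissue was taken 4 weeks later. The hippocampus was therefore sampled away from the place of injection. No transgenic mouse was sham treated. A comparison of transgenic mice with all non-transgenic mice therefore also compares mice given lentivirus with a set that was in part sham treated. The sources used here do not name the transgenic line, its promoter, the age in months or which arrays of the 2 regions came from 1 animal.

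Brain endothelial cells form the blood-brain barrier: tight junctions sealed by claudin-5 close the gaps between cells, and transporters in the membrane decide what enters the brain. KLF2 and KLF4 are zinc-finger transcription factors that laminar blood flow induces in endothelium, where they hold the cells in a quiet, anticoagulant state; other cell types make them too. FLT1 binds vascular endothelial growth factor and limits its action, while TEK, also called TIE2, is the receptor of the angiopoietins, which stabilise vessels. The arrays measured whole dissected tissue, so fewer endothelial cells and less RNA per cell cannot be told apart.

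The promoters of Klf2, the 1 member called between groups, of its relative Klf4 and of the junction gene Cldn5 are shown because the comparisons of groups turn on these 3 genes. Each is the 250 bases before the gene's start in RefSeq, assembly GRCm38.p6, read 5′ to 3′ on the gene's strand. Klf2 lies at chr8:72318812-72319061 on the plus strand, Klf4 at chr4:55532476-55532725 on the minus strand and Cldn5 at chr16:18776597-18776846 on the plus strand. Capitals mark the site that MEF2 transcription factors bind, whose motif has degenerate letters and reads the same on both strands, and the letters GGGTG or, for the other strand, CACCC, the core of a box bound by KLF proteins. The 2 motifs share no letters.
Klf2: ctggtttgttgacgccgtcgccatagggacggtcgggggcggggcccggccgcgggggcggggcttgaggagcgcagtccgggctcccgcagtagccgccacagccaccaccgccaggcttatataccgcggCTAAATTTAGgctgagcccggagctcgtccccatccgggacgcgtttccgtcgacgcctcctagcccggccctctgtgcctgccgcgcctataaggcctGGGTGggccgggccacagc
Klf4: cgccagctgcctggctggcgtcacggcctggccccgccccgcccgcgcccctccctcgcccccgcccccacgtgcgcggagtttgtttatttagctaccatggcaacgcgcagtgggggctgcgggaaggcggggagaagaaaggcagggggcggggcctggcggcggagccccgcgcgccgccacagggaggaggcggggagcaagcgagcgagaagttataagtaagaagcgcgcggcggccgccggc
Cldn5: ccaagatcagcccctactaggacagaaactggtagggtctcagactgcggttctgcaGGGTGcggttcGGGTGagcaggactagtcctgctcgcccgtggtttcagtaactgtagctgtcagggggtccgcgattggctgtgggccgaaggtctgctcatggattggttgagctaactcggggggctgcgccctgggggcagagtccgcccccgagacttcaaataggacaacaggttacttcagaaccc
The Klf2 window held a match to the MEF2 motif that starts at position -118 relative to the gene's start, and MEF2 factors are known to drive Klf2 in endothelium. Such a match was present in 959 of 32851 windows of this length in the RefSeq table, 2.92%, and among the 8 members with an entry in Klf2 alone. The KLF box was present in 52.0% of all windows and in 7 of the 8 member windows, Klf4 being the exception. G and C made up 71.2% of the Klf2 window, 74.0% of the Klf4 window and 59.6% of the Cldn5 window. A match describes these letters and is not evidence that a factor was bound.

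Values are log2 values after RMA, in which a difference of 1 is a doubling, and array medians lay between 5.51 and 5.58. A change was called where limma's moderated test gave a Benjamini-Hochberg adjusted p under 0.05 over the 14941 genes tested. The labels call the arrays of a group biological replicates. Some arrays stood apart. The level of Xist, which female cells transcribe, fell into a high range (10.38 to 11.01; 18 arrays, among them every non-transgenic one) and a low range (5.38 to 6.01; 8 of the 16 transgenic arrays), so the sexes were not balanced between genotypes. Genes of the choroid plexus, the secretory epithelium of the ventricles, averaged 8.20 over a list of 9 on hippocampal sham array 1, while the other hippocampal arrays had 5.66 to 5.92.

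Klf2 was the 1 member called between groups within a region, and in the hippocampus it had the largest changes between genotypes; in the entorhinal cortex Klf4 had changes of like size. In the hippocampus its log2 values were 7.24, 7.21 and 7.28 in sham mice and 7.18 and 7.20 in non-transgenic mice given GFP. They were 6.63, 6.49, 6.84 and 6.96 in transgenic mice given GFP and 6.41, 6.71, 6.59 and 6.70 in transgenic mice given BDNF. Every transgenic hippocampus lay below every non-transgenic one, with no overlap, and the non-transgenic arrays lay close together while the transgenic ones spread. Entorhinal Klf2 read 7.18, 7.43 and 7.19 in sham mice and 7.33 and 6.91 in non-transgenic mice given GFP. It read 6.91, 6.80, 6.61 and 6.78 in transgenic mice given GFP and 7.07, 6.86, 6.63 and 6.99 in those given BDNF. There the groups came nearer to each other: the BDNF arrays reached above the lower of the 2 non-transgenic GFP arrays.

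Ordered by mean, Klf2 stood at 7.27 ± 0.14 (SD, n = 3) in the entorhinal cortex of sham mice, 7.24 ± 0.03 (n = 3) in their hippocampus, 7.19 ± 0.01 (n = 2) in the hippocampus and 7.12 ± 0.30 (n = 2) in the entorhinal cortex of non-transgenic mice given GFP. The transgenic groups followed, at 6.88 ± 0.19 (BDNF) and 6.77 ± 0.12 (GFP) in the entorhinal cortex and 6.73 ± 0.21 (GFP) and 6.61 ± 0.14 (BDNF) in the hippocampus, with n = 4 each. All 4 transgenic groups ranked below all 4 non-transgenic groups. Neighbours in this order differed by less than the larger of their SDs, the step from 7.12 to 6.88 included, with 1 exception. The exception was the hippocampal sham and non-transgenic GFP arrays, which did not overlap though their means were only 0.05 apart. In that comparison of 2 with 3 arrays, 29.0% of all genes had groups without overlap.

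**Figure D1:**
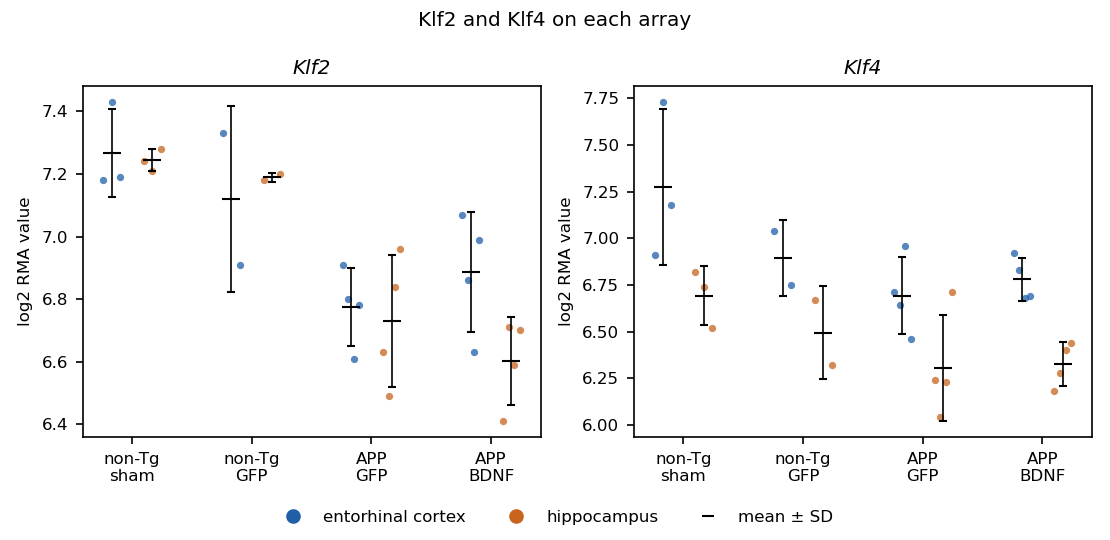
Log2 RMA values of Klf2 and Klf4 on every array, by group, with the entorhinal cortex in blue and the hippocampus in orange; bars are the mean ± SD, and each panel has its own axis. Hippocampal Klf2 lies between 7.18 and 7.28 on the 5 non-transgenic arrays and between 6.41 and 6.96 on the 8 transgenic ones, while the Klf4 groups overlap.

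Klf2 fell in the hippocampus of transgenic mice given BDNF against all 5 non-transgenic arrays, by 1.53-fold (log2 change -0.62 ± 0.09 SE, limma adjusted p = 0.0326). It was the 1 member called there, in a comparison in which 0.0535% of all genes were called, and all 4 BDNF arrays lay below all 5 controls. Against the same controls, transgenic mice given GFP had a change of -0.49 ± 0.09, which limma did not call (adjusted p = 0.212). The 2 comparisons share their control arrays. Compared directly, transgenic hippocampi given BDNF differed from those given GFP by -0.13 ± 0.10 in Klf2 (limma adjusted p = 0.92), which was not called. Against the 2 GFP controls alone the change of transgenic mice given GFP was -0.46 ± 0.12 (limma adjusted p = 0.988). The entorhinal change was -0.43 ± 0.11 in transgenic mice given GFP against all controls (limma adjusted p = 0.86) and -0.32 ± 0.11 in those given BDNF (adjusted p = 0.296). Between the regions the transgene's effect on Klf2 differed by 0.06 ± 0.15 (limma adjusted p = 1). For that difference limma called 0 members (0% of all genes), and 0 had an unadjusted p under 0.05 (2.01%).

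The hippocampal call was at the edge of what 13 arrays can show. It was lost when any of the 9 arrays compared was left out, and without transgenic GFP array 1, which only informs the spread; over all 13 arrays left out in turn the change ran from -0.65 to -0.55 and the limma adjusted p from 0.022 to 0.193. It was also lost with Xist as a covariate (-0.63, adjusted p = 0.109), with the mean of other endothelial genes as a covariate (-0.71, adjusted p = 0.151) and in 3 further settings, and over all settings the change stayed between -0.71 and -0.59. Within arrays of high Xist, hippocampal Klf2 was 6.41 and 6.71 with BDNF and 6.63 and 6.84 with GFP in transgenic mice. All 5 non-transgenic hippocampi were in the high range of Xist, with Klf2 at 7.18 to 7.28. Among hippocampi of high Xist, every transgenic one thus lay below every non-transgenic one. Arrays of low Xist had no non-transgenic counterpart, so genotypes could not be compared among them.

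A comparison of all 8 transgenic with all 5 non-transgenic arrays was added after these values had been seen. In the hippocampus it gave Klf2 a change of -0.55 ± 0.08 (limma adjusted p = 0.0169), in a comparison that called 0.0268% of genes; 0.181% of genes had groups that did not overlap and Klf2 was the 1 member among them. The call held in 6 of 13 fits that left out an array (adjusted p 0.00279 to 0.0979). Over arrays of high Xist the change was -0.57 (limma adjusted p = 0.0755). The entorhinal change was -0.38 ± 0.09 (limma adjusted p = 0.317, with 0.0134% of genes called), and -0.30 over arrays of high Xist (adjusted p = 0.48). No member had groups without overlap in the entorhinal cortex, where 0.609% of all genes did.

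Most genes of several other lists also had lower values in the hippocampus of mice given BDNF, where 49.8% of all genes were lower than in non-transgenic mice and 6.6% had an unadjusted p under 0.05 in either direction. Of 24 other endothelial genes tested, 21 were lower than in non-transgenic mice (median log2 change -0.12, against 0 for all genes), with list means of 7.11 to 7.24 in the BDNF group and 7.20 to 7.34 in the controls. Of 15 early response genes, which neurons and vessels induce within minutes of a stimulus, 14 were lower (median -0.29), with list means of 6.80 to 7.19 against 7.05 to 7.54. Of 16 meningeal and perivascular fibroblast genes 14 were lower (median -0.25), with means of 7.16 to 7.39 against 7.39 to 7.55. Of 11 endothelial activation genes 10 were lower (median -0.17; 6.97 to 7.21 against 7.16 to 7.65), of 15 pericyte and smooth muscle genes 13 (median -0.13; 6.77 to 6.90 against 6.85 to 7.10) and of 14 microglia and macrophage genes 12 (median -0.13; 7.58 to 7.85 against 7.56 to 8.03). Limma called 0 genes of these 6 lists there after adjustment. In the order given, 2, 6, 7, 4, 3 and 0 of them had an unadjusted p under 0.05 with a negative change. Their part in the Klf2 result was not tested, apart from the endothelial covariate, under which the Klf2 change was -0.71. The 5 genes on either side of Klf2 on the chromosome, from Tpm4 to Med26 in RefSeq order, had changes between -0.12 and 0.08 and none was called.

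Klf4, the close relative of Klf2, had values that pointed the same way with wider spread. Entorhinal values were 6.91, 7.73 and 7.18 in sham mice, 7.04 and 6.75 in non-transgenic mice given GFP, 6.71, 6.64, 6.96 and 6.46 in transgenic mice given GFP, and 6.92, 6.83, 6.68 and 6.69 in those given BDNF. The groups overlapped, and sham array 2 was far above all others. The change of transgenic mice given GFP against all controls was -0.43 ± 0.15 in the entorhinal cortex (limma adjusted p = 0.935) and -0.31 ± 0.13 in the hippocampus (adjusted p = 0.999). With BDNF the limma changes were -0.34 ± 0.15 (adjusted p = 0.359) and -0.29 ± 0.13 (adjusted p = 0.73) against the same controls. Without sham array 2 the entorhinal changes were -0.28 with GFP and -0.19 with BDNF. The second Klf4 probe set gave -0.27 and -0.24 with GFP and, in the hippocampus with BDNF, -0.42. In the comparison of all transgenic with all non-transgenic arrays Klf4 differed by -0.39 ± 0.14 in the entorhinal cortex (limma adjusted p = 0.363) and -0.30 ± 0.10 in the hippocampus (adjusted p = 0.812), and no call was made.

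Among the junction genes, Cldn5, which encodes the claudin that seals barrier junctions, had its lowest entorhinal values in non-transgenic mice given GFP. It read 9.33, 9.32 and 9.18 there in sham mice and 8.93 and 8.92 in non-transgenic mice given GFP. Cldn5 read 9.12, 9.08, 9.17 and 9.13 in transgenic mice given GFP and 9.36, 9.43, 9.20 and 9.29 in transgenic mice given BDNF. All BDNF arrays lay above all transgenic GFP arrays, and the 2 non-transgenic GFP arrays were the lowest of the region. In the hippocampus it read 9.08, 9.32 and 9.15 in sham mice, 8.91 and 8.74 in non-transgenic mice given GFP, 8.91, 9.20, 8.74 and 9.08 in transgenic mice given GFP, and 8.72, 8.87, 8.98 and 9.02 in those given BDNF. There the sham arrays lay above the BDNF arrays, and the transgenic GFP arrays covered most of the range.

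The Cldn5 change of GFP against sham in non-transgenic mice was -0.35 ± 0.08 in the entorhinal cortex (limma adjusted p = 1) and -0.36 ± 0.13 in the hippocampus (adjusted p = 0.496). Without the sham hippocampus rich in choroid plexus RNA it was -0.41. With BDNF against GFP in transgenic mice Cldn5 differed by 0.19 ± 0.06 in the entorhinal cortex (limma adjusted p = 0.998) and by -0.08 ± 0.10 in the hippocampus (adjusted p = 0.946); the difference between these 2 effects was 0.28 ± 0.12 (adjusted p = 0.996). None of these changes was called.

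Cdh5 encodes VE-cadherin, the adhesion protein of endothelial junctions, and Pecam1 encodes CD31, which sits at the same contacts. Neither passed the adjusted test between any of the groups within a region. Cdh5 changes ranged from -0.28 ± 0.16 for GFP against sham in the entorhinal cortex (limma adjusted p = 1) to 0.11 ± 0.11 for transgenic against non-transgenic GFP in the hippocampus (adjusted p = 0.988). Pecam1 in transgenic mice given GFP differed from all controls by -0.20 ± 0.10 in the entorhinal cortex (limma adjusted p = 0.935) and by -0.21 ± 0.12 in the hippocampus (adjusted p = 0.999). Hippocampal Pecam1 was 5.79, 6.06 and 5.97 in sham mice, 5.68 and 5.74 in non-transgenic mice given GFP and 5.19, 5.79, 5.89 and 5.67 in transgenic mice given GFP, and against the non-transgenic GFP arrays alone, which lie inside the transgenic range, the change was -0.08.

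Tek, the angiopoietin receptor, had its largest value with BDNF in the entorhinal cortex. It read 7.65, 7.84 and 7.80 in sham mice, 7.57 and 7.43 in non-transgenic mice given GFP, 7.68, 7.64, 7.62 and 7.55 in transgenic mice given GFP and 7.68, 7.89, 8.07 and 7.94 in those given BDNF. The lowest BDNF array and the highest transgenic GFP array both round to 7.68, the BDNF array being the higher before rounding, so the groups touched without overlap. The change with BDNF was 0.27 ± 0.08 (limma adjusted p = 0.998), and in the hippocampus 0.00 ± 0.11 (adjusted p = 0.999); the difference of the 2 effects was 0.27 ± 0.15 (adjusted p = 0.996). Flt1, the receptor that limits vascular endothelial growth factor, differed on its brightest probe set by at most 0.21 ± 0.26 in size between any of the groups within a region. Other Flt1 probe sets reached 0.30 ± 0.16 (entorhinal cortex, transgenic against non-transgenic GFP) and -0.29 ± 0.13 (hippocampus, BDNF against all controls), and limma called none. On the brightest probe set 2 arrays of the entorhinal cortex, transgenic GFP array 1 (8.03) and BDNF array 1 (7.87), were low against 8.27 to 8.84 on the others. On the Flt1 probe set next in brightness these arrays read 8.5 and 8.16, within the range of the others (7.97 to 8.65).

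Of the transporters, Slco1a4 carries organic anions and thyroid hormone across the barrier, Abcb1a encodes P-glycoprotein, which pumps drugs back into the blood, and Slc2a1 encodes the glucose transporter GLUT1. Hippocampal Slco1a4 read 9.68, 9.56 and 9.51 in sham mice, 9.49 and 9.43 in non-transgenic mice given GFP, 9.43, 9.53, 9.13 and 9.25 in transgenic mice given GFP, and 9.03, 9.25, 9.17 and 9.41 in those given BDNF. All BDNF arrays lay below all controls. The change was -0.32 ± 0.09 (limma adjusted p = 0.547). Hippocampal Abcb1a read 7.84, 7.81 and 7.89 in sham mice, 7.81 and 7.56 with non-transgenic GFP, and 7.36, 7.58, 7.42 and 7.53 with BDNF, a change of -0.31 ± 0.12 against all controls (limma adjusted p = 0.695). On this brightest probe set the BDNF arrays overlapped the controls only through the lower of the 2 GFP arrays, and transgenic GFP arrays ran from 7.32 to 8.01. On the second Abcb1a probe set the BDNF arrays (7.14 to 7.5) overlapped the sham arrays as well (7.25 to 7.45). With the mean of other endothelial genes as a covariate the changes on the brightest probe sets were smaller, -0.13 for Slco1a4 and -0.02 for Abcb1a. Slc2a1 in the same comparison differed by -0.17 ± 0.11 on its brightest probe set (limma adjusted p = 0.824), and by -0.27 and -0.22 on the other two, which limma did not call either.

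**Figure D2:**
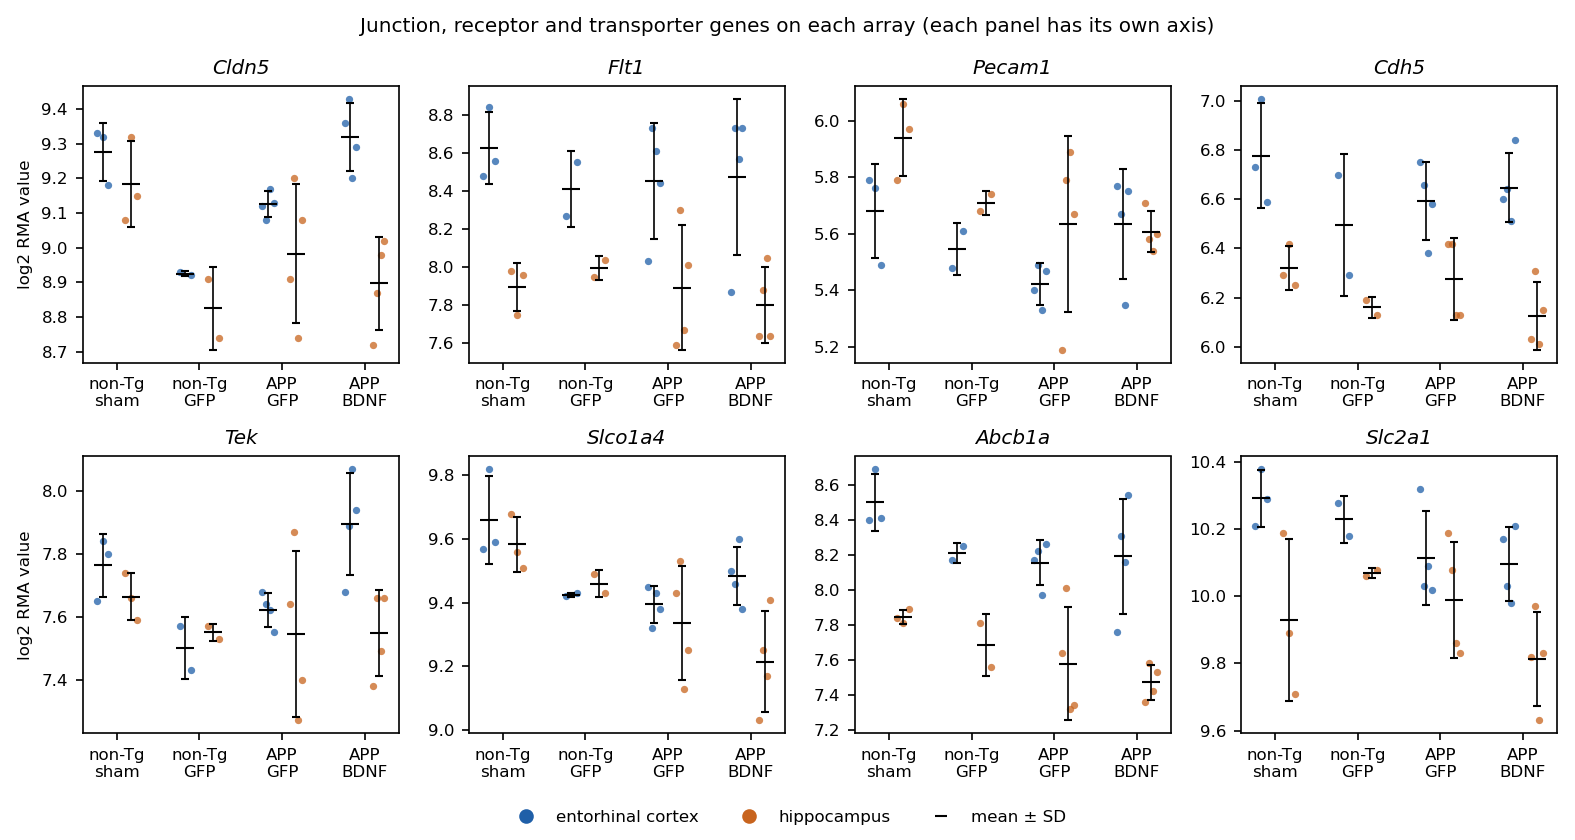
Log2 RMA values of the 8 junction, receptor and transporter genes on every array, by group, with the entorhinal cortex in blue and the hippocampus in orange; bars are the mean ± SD and each panel has its own axis. Cldn5 in the entorhinal cortex is lowest on the 2 non-transgenic GFP arrays (8.93 and 8.92), Abcb1a and Flt1 are higher in the entorhinal cortex, and the Slco1a4 group with BDNF in the hippocampus (9.03 to 9.41) lies below the non-transgenic arrays (9.43 to 9.68).

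The direction of the members as a set is given here by counts, comparison by comparison. All 10 were lower in the entorhinal cortex of transgenic mice given GFP than in all controls (44.2% of all genes were), with a median change of -0.16 against 0.01 for all genes; under centring on the array median 9 of 10 were lower. Limma called 0 of 10 after adjustment (0.0134% of all genes) and 3 had an unadjusted p under 0.05 (4.76%): Klf2, Klf4 and Slco1a4 (-0.17 ± 0.07). Klf2 was the 1 member whose groups did not overlap (2.31%). In the hippocampus 8 of 10 were lower (42.8%), with a median of -0.14, 0 were called (0.0402%), Klf2 and Klf4 had an unadjusted p under 0.05 (4.49%), and Klf2 was the 1 member without overlap (0.917%). Both counts depended on the arrays: leaving out each in turn gave 7 to 10 lower members in the entorhinal cortex (7 without sham array 2) and 5 to 10 in the hippocampus, with a median of -0.05 without transgenic GFP array 3 and -0.08 without array 1. Of 24 other endothelial genes 17 were lower in the entorhinal cortex and 15 in the hippocampus, each time with a median of -0.03. Of 24 barrier transport and junction genes 11 were lower in the entorhinal cortex (median 0.0) and 13 in the hippocampus (median -0.02). Lists of other cell types were lower in part as well. In the entorhinal cortex 12 of 12 astrocyte genes (median -0.09; list means 10.43 to 10.55 against 10.51 to 10.72), 14 of 15 pericyte and smooth muscle genes (median -0.10; 6.70 to 7.19 against 6.86 to 7.23) and 13 of 16 meningeal and perivascular fibroblast genes (median -0.22; 7.37 to 8.12 against 7.77 to 8.49) had negative changes. Hippocampal counts were 10 of 12 (median -0.06), 11 of 15 (median -0.06) and 14 of 16 (median -0.15) for the same lists. Their part in the members' direction was not tested.

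Against the 2 GFP controls alone, 6 of 10 members were lower in the entorhinal cortex (44.6% of genes) with a median of -0.05, limma called 0 (0.0134%), and 2 had an unadjusted p under 0.05 (2.5%) and no overlap (10.2%): Klf2 with -0.34 ± 0.14 and Cldn5 with 0.20 ± 0.08. In the hippocampus 8 of 10 were lower (37.8% of genes) with a median of -0.09 (-0.12 to -0.03 with an array left out), limma called 0 (0.00669%), and Klf2 alone had an unadjusted p under 0.05 (4.41%) and no overlap (8.23%). All mice of this comparison were given GFP. The entorhinal Klf2 value rested on few arrays: it was -0.13 without non-transgenic GFP array 1 and -0.56 without array 2, and the nearest arrays of the 2 groups both round to 6.91.

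With BDNF against GFP in transgenic mice the counts of the 2 regions pointed in opposite directions, and both moved with the arrays. In the entorhinal cortex 9 of 10 members were higher with BDNF (55.1% of genes), with a median of 0.09, and in the hippocampus 8 of 10 were lower (54.5% of genes), with a median of -0.10. With each array left out in turn, 6 to 9 were higher in the entorhinal cortex (6 without BDNF array 4), and 6 to 10 were lower in the hippocampus, where the median ran from -0.17 (without transgenic GFP array 3) to -0.03 (without transgenic GFP array 2) and was -0.06 without BDNF array 1 and -0.05 without transgenic GFP array 4. Limma called 0 members in either region, where it called 0% of all genes; 2 members, Cldn5 and Tek, had an unadjusted p under 0.05 in the entorhinal cortex (3.88%) and 0 in the hippocampus (5.31%). Cldn5 and Tek had groups that did not overlap in the entorhinal cortex (2.32%) and no member had in the hippocampus (2.64%). The effect of BDNF was higher in the entorhinal cortex than in the hippocampus for 10 of 10 members (57.6% of genes), with a median difference of 0.21 against 0.03 for all genes; limma called 0 (0%) and 1, Cldn5, had an unadjusted p under 0.05 (4.03%). Of the 24 other endothelial genes 23 were lower with BDNF in the hippocampus (median -0.11), with list means of 7.11 to 7.24 against 7.19 to 7.39 with GFP, and 9 were higher in the entorhinal cortex; with their mean as a covariate 5 members were lower and 5 higher in the hippocampus, with a median of -0.01.

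Against all controls, transgenic mice given BDNF had 10 of 10 members lower in the hippocampus (49.8% of genes), with a median of -0.21 against 0 for all genes; it was -0.24 to -0.18 with an array left out and -0.08, with 8 of 10 lower, with the endothelial covariate. Besides the call of Klf2, an unadjusted p under 0.05 was reached by Klf4, Slco1a4 and Abcb1a (4 of 10, against 6.6% of all genes), and Klf2 and Slco1a4 had groups without overlap (3.02%). Of the 10, 7 were lower in the entorhinal cortex (42.6%), with a median of -0.08 (-0.01, with 5 of 10 lower, without sham array 2, and -0.04 without BDNF array 1; at most -0.13); limma called 0 (0.0402%), and 5 members had an unadjusted p under 0.05 (13.2%). These were Klf2, Klf4 and Slc2a1 (-0.17 ± 0.08) with lower and Cldn5 (0.18 ± 0.06) and Tek (0.24 ± 0.08) with higher values. No member had groups without overlap (4.59%).

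GFP lentivirus was compared with the sham lesion in non-transgenic mice, with 2 GFP and 3 sham arrays. The sample titles do not say whether sham mice were injected. In the entorhinal cortex, the place of injection, all 10 members were lower with GFP (50.1% of genes), with a median of -0.25 against 0 for all genes, which was -0.15 without sham array 2. Limma called 0 of them (0.0201%); Cldn5, Tek (-0.26 ± 0.11) and Slco1a4 (-0.24 ± 0.09) had an unadjusted p under 0.05 (2.95%), and these 3 and Abcb1a had groups without overlap (19.2%). In the hippocampus 8 of 10 were lower (61.7% of genes) with a median of -0.14 against -0.04 (-0.08 without non-transgenic GFP array 2), limma called 0 (0.0335%), Cldn5 alone had an unadjusted p under 0.05 (9%), and 6 members had groups without overlap (29.0%). At the place of injection 15 of 16 meningeal and perivascular fibroblast genes (median -0.37; list means 7.77 and 7.81 against 8.04 to 8.49), 14 of 15 pericyte and smooth muscle genes (median -0.17; 6.86 and 6.88 against 6.94 to 7.23) and 21 of 24 other endothelial genes (median -0.14; 7.03 and 7.13 against 7.15 to 7.34) were also lower, and limma called 0 genes of these lists. The part of vessel and meningeal content in the members' values was not tested.

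**Figure D3:**
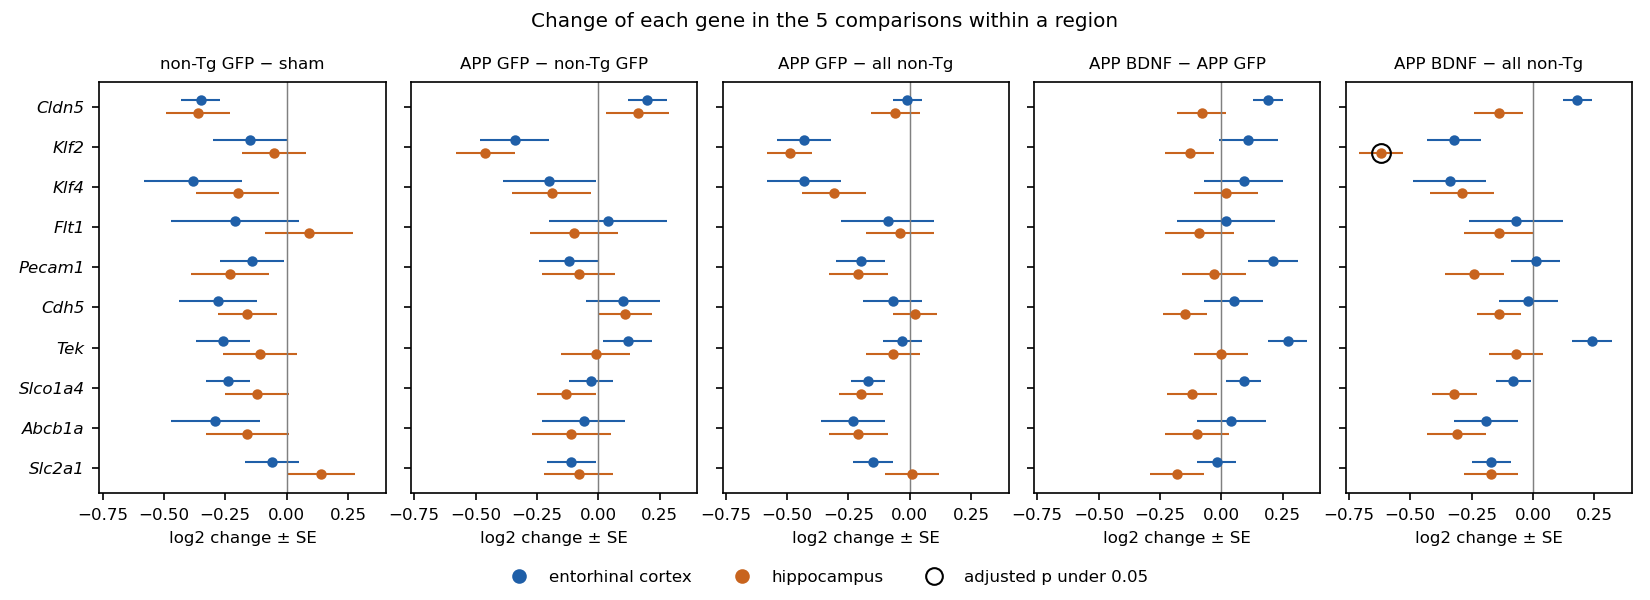
Log2 change ± SE of each member in the 5 comparisons within a region, with the entorhinal cortex in blue and the hippocampus in orange; a ring marks an adjusted p under 0.05 and the line marks no change. The 1 ring is Klf2 in the hippocampus with BDNF against all non-transgenic arrays (-0.62); Klf2 is left of the line in both regions in every panel but BDNF against GFP, where the entorhinal value is 0.11.

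More members were called between the 2 regions than between any groups within a region, and the same was true of all genes. Within a region at most 0.0535% of all genes were called. With groups weighted equally, 6 of 10 members were called higher in the entorhinal cortex than in the hippocampus. The comparison called 51.8% of all genes, and 20.6% of all genes were called higher. Abcb1a was 1.54-fold higher (0.62 ± 0.08, limma adjusted p = 1.38e-06), Flt1 1.51-fold (0.59 ± 0.11, adjusted p = 5.66e-05), Klf4 1.37-fold (0.46 ± 0.09, adjusted p = 0.000152), Cdh5 1.33-fold (0.41 ± 0.06, adjusted p = 1.39e-05), Slc2a1 1.18-fold (0.23 ± 0.06, adjusted p = 0.00174) and Cldn5 1.14-fold (0.19 ± 0.05, adjusted p = 0.00278). Tek (0.12 ± 0.06), Slco1a4 (0.09 ± 0.05) and Klf2 (0.07 ± 0.06) were not called, nor was Pecam1, the 1 member with a negative value (-0.16 ± 0.07, limma adjusted p = 0.061). The median over the members was 0.21, against -0.03 for all genes. The calls of the 2 regions may involve shared animals, which the fit did not take into account.

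Probe sets of a gene did not always read alike between regions. Both Klf4 probe sets (0.46 and 0.45) and both Abcb1a probe sets (0.62 and 0.53) were called higher in the entorhinal cortex by limma with all probe sets tested. Of the 4 Flt1 probe sets, 3 were called (0.59, 0.41 and 0.24), and the dimmest had 0.01. Flt1 makes a full-length receptor and a shorter soluble form, and the probe sets were not assigned to either here. Slc2a1 was split: its brightest probe set was called higher (0.23), another was not called (0.08), and the third was called lower (-0.23, limma adjusted p = 0.000378), so its direction rests on the probe set read.

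**Figure D4:**
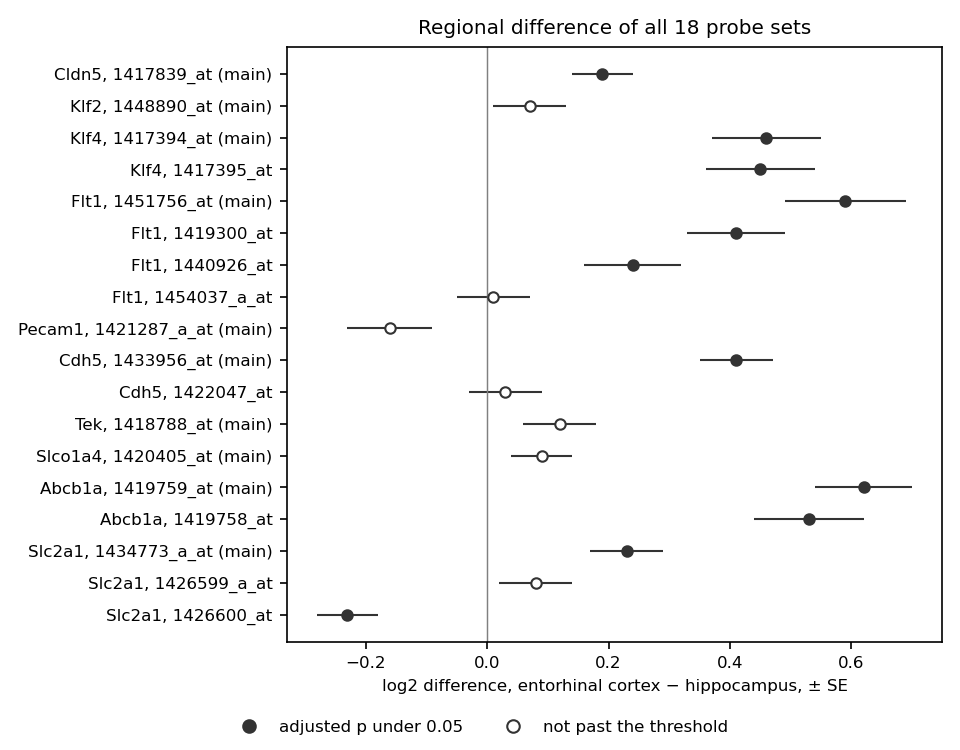
Log2 difference of the entorhinal cortex minus the hippocampus, ± SE, for each of the 18 probe sets; "main" marks the probe set with the highest mean, which stands for its gene, and filled points have an adjusted p under 0.05 with all probe sets tested. Points right of the line are higher in the entorhinal cortex; the 3 Slc2a1 probe sets spread from -0.23 to 0.23.

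Other genes of vessels gave a mixed picture between regions. Of all genes, 51.8% were called in this comparison and 20.6% were called higher. Of 24 other endothelial genes 3 were called higher and 10 lower in the entorhinal cortex, with a median of -0.06; among the lower were Cd34 (-0.73 ± 0.11), the adrenomedullin receptor partner Ramp2 (-0.65 ± 0.05), the orphan receptor Tie1 (-0.41 ± 0.09) and the transcription factor Sox18 (-0.39 ± 0.07). Of 24 further barrier transport and junction genes 9 were higher and 6 lower (median 0.04): the tight junction gene Ocln was lower (-0.78 ± 0.07), and the Wnt effector Lef1 (0.51 ± 0.08), Cldn12 (0.51 ± 0.05) and the organic anion transporter Slc22a8 (0.45 ± 0.11) were higher. Of 17 genes of VEGF and angiopoietin signalling 6 were higher and 6 lower (median 0.04); Angpt1, the ligand that activates Tek, was higher (1.49 ± 0.11), and the VEGF co-receptor Nrp1 (-1.09 ± 0.06) and Apln (-0.45 ± 0.06) were lower. Neurons and glia express several of these genes as well.

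Lists of cell types that accompany vessels are given for the same comparison, by counts of called genes. Of all genes, 51.8% were called there. Of 16 meningeal and perivascular fibroblast genes 11 were higher and 1 lower in the entorhinal cortex (median 0.63), among them Col1a2 (1.49 ± 0.16), Col3a1 (1.20 ± 0.19) and Mgp (1.14 ± 0.16). On single arrays the means of this list ran from 7.24 to 8.49 there and from 6.92 to 7.55 in the hippocampus. Group means ran from 7.76 to 8.21 and from 7.23 to 7.54. Of 15 pericyte and smooth muscle genes 1 was higher (Cspg4, 0.24 ± 0.07) and 1 lower (Ndufa4l2, -0.14 ± 0.05), with a median of -0.04. Of 11 endothelial activation genes 5 were higher and 2 lower (median 0.10), with Ptgs2 at -1.78 ± 0.19, Thbd at 1.57 ± 0.13 and Il1r1 at -1.08 ± 0.06. Of 14 microglia and macrophage genes 3 were higher and 2 lower; Mrc1 (0.96 ± 0.11) and Pf4 (0.66 ± 0.08), which mark macrophages at vessels and meninges, were higher. The part of meningeal tissue in the regional difference of the members was not tested.

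Within a region, limma called 1 gene of all these lists in any comparison of groups, Mgp, a matrix protein of vessel walls and fibroblasts, which fell in the hippocampus of transgenic mice given GFP against all controls (-0.75 ± 0.10, adjusted p = 0.0119). Among the genes of barrier transport and junctions, hippocampal Mfsd2a, the lipid transporter of the barrier, differed by -0.28 ± 0.09 with BDNF against all controls (limma adjusted p = 0.644), and 16 of 24 genes were lower there (median -0.08). Of the VEGF and angiopoietin genes, the apelin receptor Aplnr had the largest value in transgenic mice given GFP against all controls, 0.41 ± 0.14 in the entorhinal cortex and 0.90 ± 0.35 in the hippocampus (limma adjusted p = 0.935 and 0.999). Of the activation genes, Icam1 (1.02 ± 0.26) and Cxcl10 (1.40 ± 0.52) were the largest in hippocampi of non-transgenic mice given GFP against sham (limma adjusted p = 0.373 and 0.496), where 7 of 11 genes were higher. Choroid plexus genes were lower in all 9 cases in that comparison (median -0.90), and 1 was called higher and 3 lower between the regions. The list mean was 8.20 on sham array 1, named above, 5.92 and 5.77 on the other sham arrays and 5.68 and 5.67 on the GFP arrays. Most of the difference in list mean thus came from sham array 1. The 6 erythrocyte and platelet genes had medians between -0.11 and 0.05 within the regions, and 1, Alas2, was called lower in the entorhinal cortex (-0.23 ± 0.09). Of the 12 astrocyte genes 5 were higher and 1, Gfap, lower in the entorhinal cortex (-1.46 ± 0.15), and of the 15 early response genes 5 were higher and 1, Arc, lower (-1.06 ± 0.26). Between the regions 51.8% of all genes were called.

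Across arrays the members varied together in part. Over the 13 arrays of the entorhinal cortex the 45 pairs of members had Pearson correlations from -0.19 to 0.82 with a median of 0.40, and 40 were above 0. Over the 13 hippocampal arrays they ran from -0.28 to 0.86 with a median of 0.37, and 41 were above 0. The lowest median correlation with the other members was that of Flt1 in the entorhinal cortex (0.13) and of Slc2a1 in the hippocampus (0.14). In the other region Flt1 had 0.23 and Slc2a1 had 0.40. Arrays share tissue make-up and normalization, so these values are descriptions. The genes whose profile was most like the mean of the members, by the lower of the correlations in the 2 regions over 13 arrays each, were Epas1 (0.78 and 0.89 in entorhinal cortex and hippocampus), Galc (0.73 and 0.76), Fgf1 (0.81 and 0.73), Adgrf5 (0.86 and 0.72) and Myl9 (0.70 and 0.78).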

How the data were processed

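RNA of dissected, frozen tissue was measured on 26 Affymetrix arrays. The authors deposited 1 table of log2 values made with RMA (background correction, quantile normalization and probe summary) per the submitters' processing notes; no RMA version is named there. Because RMA gives all arrays a common distribution, a shift of most genes together cannot be seen, and differences of dim probe sets are compressed. The table held 0 missing values and 0 pairs of identical arrays. Gene names came from the platform annotation (34958 probe sets with 1 symbol, 932 with several, 9211 with no entry), updated for 34754 through a RefSeq gene table. Each gene was read from its probe set with the highest mean, and was tested where that mean reached the 30th percentile over the array's probe sets.

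Tests used lmFit and eBayes of limma 3.58.1 (R 4.3.3), with the 13 arrays of a region in 1 fit, or all 26 for contrasts between regions, and were tested on simulated data. All tests were 2-sided, with Benjamini-Hochberg adjustment over all genes tested. The members, the gene lists (other endothelial, barrier transport and junctions, VEGF and angiopoietin signalling, endothelial activation, pericyte and smooth muscle, meningeal and perivascular fibroblast, choroid plexus, microglia and macrophage, astrocyte, early response, erythrocyte and platelet) and the tests were chosen with earlier results of these data known. All members were described; of each list, up to 4 called genes by size of change were eligible for naming, or otherwise the 2 largest; Mfsd2a, Icam1, Cxcl10 and Aplnr follow that rule, and Mgp is the 1 call. Likeness was ranked by the lower of the 2 regional correlations. Promoters were matched by symbol for 8 of 10 members. Alternatives changed the filter, the probe sets per gene, the normalization, the eBayes options, the array weights, the arrays fitted, Xist or the endothelial mean as a covariate, the replicate number as a block, and left out each array.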

Additional observations from a re-analysis of the deposited data

How the results depend on the processing

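Of 15 counts of called members, 13 stayed within 1.5 times their value in every setting run. Most of these 13 were counts of 0 that stayed 0, which says little about stability. The count between regions, 6, was above 0 and held. The hippocampal count for BDNF against all non-transgenic arrays, 1 (Klf2), was 0 with all probe sets tested 1 by 1, with renewed quantile normalization, with Xist as a covariate and with the mean of other endothelial genes as a covariate, and it was 0 to 1 with an array left out. The added hippocampal count for all transgenic against all non-transgenic arrays, 1, was 0 with Xist as a covariate and 0 over arrays of high Xist, and 0 to 1 with an array left out. The cause was not tested. With the replicate number as a block the first of these counts was 0 (Klf2 -0.69, limma adjusted p = 0.09), and no other count of members moved by over 1.5 times. Whether the numbers pair the arrays within a region could not be settled with so few arrays per group. Deviations of same-numbered arrays of different groups correlated from -0.248 to 0.395 in the entorhinal cortex and from -0.251 to 0.165 in the hippocampus. Differently numbered arrays gave -0.418 to 0.418 and -0.277 to 0.44. Between the regions, arrays of like groups gave -0.487 to 0.479 with the same number and -0.47 to 0.533 with different numbers. For every number, the transgenic GFP arrays of the 2 regions lay in opposite ranges of Xist. The same held for BDNF arrays 2 and 4. Those same-numbered arrays therefore did not come from the same animal.

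The regional difference of Slc2a1 was reversed, at -0.23, where all probe sets were tested 1 by 1, because another probe set of the gene was then read, and was 0.03 (limma adjusted p = 0.621) with the mean of its probe sets. Pecam1, not called between regions, was called with array weights (-0.16, adjusted p = 0.0273) and without entorhinal BDNF array 1, hippocampal transgenic GFP array 1 or hippocampal sham array 1 (lowest adjusted p 0.00395). Of 894 values of single-gene changes under alternatives, 873 kept their direction and side of the threshold. Most of these were of changes not called in the main fit. Non-transgenic groups had 2 or 3 arrays, which limits the precision.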
